A study of Caenorhabditis elegans with 2 samples.

Results

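The 87 homeobox transcription factor genes of Caenorhabditis elegans examined here were chosen by name. They are the 63 nuclear protein-coding genes called ceh- plus a number and 24 further genes with names of their own, among them the Hox genes lin-39, mab-5, egl-5, nob-1 and php-3 and the TALE gene unc-62. They make up 87 of 19973 nuclear protein-coding genes in the annotation used, and the naming rule uses no measured value. MEF-2 binding was mapped in whole larvae of the first larval stage (L1), of pooled sexes, in strain OP301. That strain has the genotype unc-119(tm4063) III; wgIs301, where wgIs301 is an integrated transgene that supplies MEF-2 fused to eGFP. The 2 biological replicates form 1 group, so there was no treatment, genotype or stage to compare, and no test between conditions was possible. The labels name mef-2 as the antibody's target. Because whole larvae were used, binding in few cells and weak binding in many cells cannot be told apart.

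Homeobox genes encode transcription factors that hold a homeodomain, a DNA-binding fold of helices that contacts the major groove. In the worm the Hox members set regional identity along the body axis, and POU, LIM and paired-like members act as selectors of neuron type. TALE members such as unc-62 (the relative of Meis and homothorax) and ceh-20 (the relative of Pbx and extradenticle) act as partners of Hox proteins. MEF-2 is a MADS-box factor whose relatives regulate muscle and neuronal genes in other animals, and which binds an A/T-rich element of 10 bases.

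Homeobox genes had a site less often than all genes in the thresholded list and among the 2000, 5000 and 10000 strongest pooled intervals. The margin was widest at the 5000 strongest and was not seen among the 416 strongest thresholded peaks. In the full relaxed list their share matched that of all genes within its error when every site in the region was counted. A site is the point source of a listed interval. It was counted for a gene when it lay between 5 kb upstream of the outermost annotated 5' end and the 3' end. In the authors' thresholded list of 832 peaks, kept for agreement between replicates, 3 of 87 homeobox genes had a site, or 3.45% (95% Wilson interval 1.18 to 9.65%), beside 6.81% of all genes. Those 3 genes were ceh-5, ceh-38 and unc-62. All 3 were in the stronger part of that list: among its 416 strongest peaks the shares were 3.45% and 3.44%. Among the 2000 strongest intervals of the pooled relaxed list, 9 homeobox genes (10.3%, 5.54 to 18.5%) had a site, beside 14.6% of all genes. Among the 5000 strongest, 15 had one (17.2%, 10.7 to 26.5%), beside 30.0% of all genes. Among the 10000 strongest the count was 37 (42.5%, 32.7 to 53.0%), beside 48.3%. In the whole pooled list of 28182 intervals, 72 homeobox genes (82.8%, 73.5 to 89.3%) had a site, beside 80.7% of all genes. The interval of the homeobox genes left out the value of all genes at the 5000 strongest, and held it at the other lengths. The lengths of 2000, 5000 and 10000 were chosen after seeing the data. The intervals cover counting error only, and genes that share a site or a neighbourhood are not independent.

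**Figure D1:**
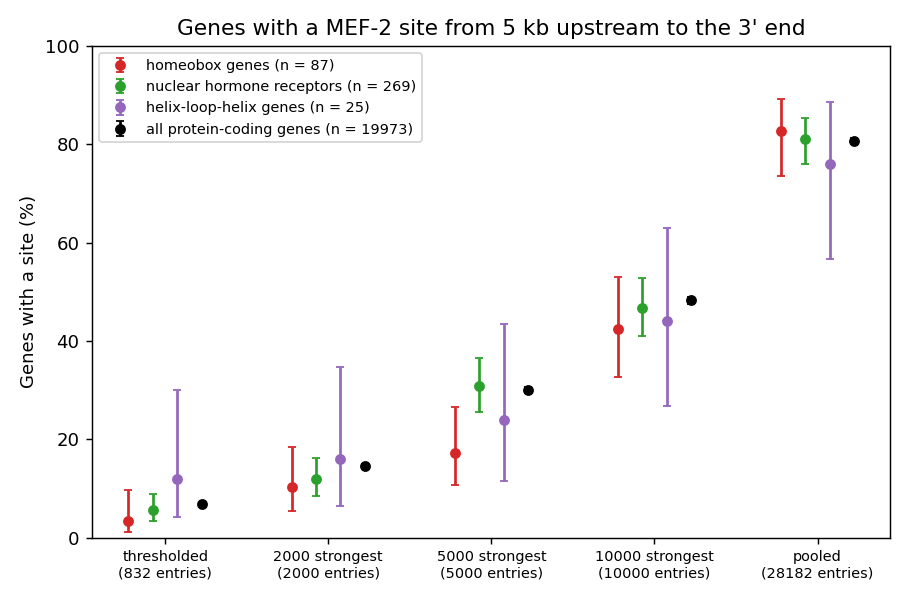
Share of genes (%) with a MEF-2 site between 5 kb upstream and the 3' end, for 5 lists from the thresholded list to the whole pooled list. Points are shares and bars 95% Wilson intervals; homeobox genes stood at 17.2% in the 5000 strongest intervals, where all genes stood at 30.0%, and at 82.8% beside 80.7% in the whole list.

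Other transcription factor families were not uniformly low in the same lists. Nuclear hormone receptor genes (nhr- plus a number) had a site among the 5000 strongest in 83 of 269 genes, or 30.9%, and basic helix-loop-helix genes (hlh- plus a number) in 6 of 25, or 24.0%. In the thresholded list the counts were 15 nuclear hormone receptor genes (5.58%) and 3 helix-loop-helix genes (12.0%). The plot of shares by list shows the homeobox genes lowest of the 4 groups from the thresholded list to the 10000 strongest intervals. The differences between families were not tested.

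Counted per kb, homeobox regions held fewer sites than all gene regions, by little in the whole list and by more among strong sites. The median region of a homeobox gene spanned 8.35 kb, against 7.03 kb for all genes. Counted once over merged regions, the homeobox genes held 204 pooled sites in 781.2 kb, or 0.261 per kb (95% Poisson interval 0.227 to 0.3), while all gene regions held 0.284 per kb. For the 5000 strongest intervals the densities were 0.0282 per kb (0.0176 to 0.0426) at homeobox genes and 0.0508 per kb at all genes. For the thresholded list they were 0.00512 per kb (0.0014 to 0.0131) and 0.00833 per kb. For the 10000 strongest they were 0.0781 (0.0597 to 0.1) and 0.101 per kb, and for the 2000 strongest 0.0128 (0.00614 to 0.0235) and 0.0203 per kb. The Poisson interval excluded the value of all genes at the 5000 and 10000 strongest, lengths chosen after seeing the data, and included it in the other 3 counts.

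The share with a site at the 5' end was lower too. Within 1000 bp upstream to 200 bp downstream of the 5' end, a window of the same length for every gene, 26 of 87 homeobox genes had a pooled site (29.9%, 21.3 to 40.2%), beside 38.5% of all genes. A thresholded site lay in that window at 1 homeobox gene, or 1.15%, beside 2.93% of all genes. In the replicate 1 list 26 homeobox genes had a site in the window (29.9%), beside 39.6%. In the replicate 2 list 15 had one (17.2%, 10.7 to 26.5%), beside 25.3%. All 4 lists gave the homeobox genes the lower share, but in each the interval included the value of all genes (0.203 to 6.23% in the thresholded list, 21.3 to 40.2% in replicate 1), and the lists come from the same 2 libraries.

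Over the whole pooled list, a larger number of homeobox gene sites lay further upstream than in the shorter 5' window. For this count each pooled site was given to the gene with the nearest 5' end among those whose region held it, which left 156 sites with homeobox genes. Of these, 25 (16.0%, 11.1 to 22.6%) fell in the 5' window, against 28.8% of the 26083 sites of all genes. Further upstream lay 57 (36.5%, 29.4 to 44.3%), against 26.9%. That upstream part runs from 5 kb to 1000 bp upstream, while the 5' window ends 200 bp downstream and is shorter. The larger number upstream therefore does not mean more sites per kb there. Introns held 55 (35.3%), against 29.2%, and exons 19 (12.2%), against 15.1%. Among sites found in both replicates, 5 of 31 (16.1%, 7.09 to 32.6%) were in the 5' window of a homeobox gene, against 39.1% for all genes. The interval of the 5' share excluded the value of all genes in both counts. However, it treats sites as independent, while some neighbouring sites share their replicate intervals, as at ceh-38. The 5' window is also a smaller part of the longer homeobox regions (median 8.35 kb, against 7.03 kb for all genes). Among the 5000 strongest intervals 5 of 18 homeobox sites lay in the 5' window and 5 further upstream (27.8% each, 12.5 to 50.9%), and the interval included the 42.8% of all genes in the 5' window.

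**Figure D2:**
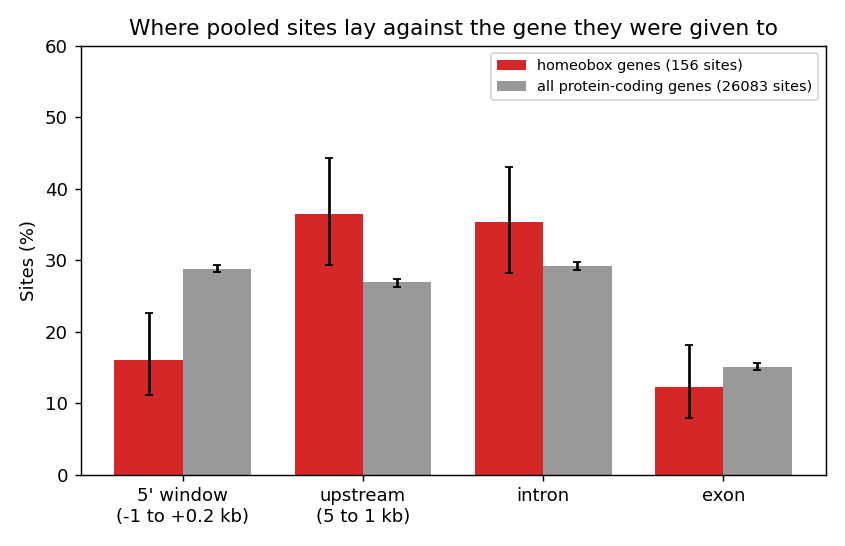
Share of pooled sites (%) in the 5' window, further upstream, in introns and in exons of the gene each site was given to, for homeobox genes (red, 156 sites) and all protein-coding genes (grey, 26083 sites). Bars start at 0 and error bars are 95% Wilson intervals; 16.0% of homeobox sites lay in the 5' window, against 28.8% for all genes.

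The strongest site at a homeobox 5' end belonged to ceh-38, one of the ONECUT-type CUT genes, which act broadly in neurons. The gene (WBGene00000459) lies at chrII:6951526-6955409 on the plus strand of ce11, the build of all coordinates here. Its thresholded interval, chrII:6951403-6951742, spans the 5' end, and its point source lay 47 bp downstream of it. The signal value, the strength given by the authors' peak caller on a scale that is not stated, was 49.2, and the interval ranked 185 in the pooled list. In replicate 1 the signal value was 38.0 (rank 156) and in replicate 2 it was 12.7 (rank 362). This was the one thresholded site in the 5' window of a homeobox gene. The part of the interval upstream of the annotated transcript is shown, since it is the promoter side of that interval; the point source itself lies in the annotated transcript and is not in it. The stretch was read from the plus strand of the reference genome and holds no MEF2 element, so no base is in capitals.
ceh-38, chrII:6951403-6951525: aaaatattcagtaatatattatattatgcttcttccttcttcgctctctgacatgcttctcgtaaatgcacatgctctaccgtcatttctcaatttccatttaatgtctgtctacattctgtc
The pooled list gave ceh-38 a further 5 sites, the nearest at 246 bp downstream with a signal value of 18.1. That site overlapped the same intervals of both replicates as the first, so the replicates do not separate them. An exon site at 3119 bp had a signal value of 9.9 and was also found in both replicates.

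The Meis-type TALE gene unc-62 had the most sites. Its region of 19.0 kb held 16 pooled sites, against a median of 2.0 per homeobox gene and 2.0 per gene overall. At 0.843 sites per kb it was also dense, although its region is long. Of all protein-coding genes, 46 (0.23%) had as many pooled sites or more and 395 (1.98%) had as many per kb. By list, replicate 1 had 15 sites there and replicate 2 had 4, and 6 of the pooled sites overlapped intervals of both. The gene (WBGene00006796) spans chrV:4497461-4511449 on the plus strand, with 18 annotated transcripts that start at several places.

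The thresholded site of unc-62 lay deep inside the gene, 10510 bp downstream of the outermost 5' end. Its interval, chrV:4507801-4508140, had a signal value of 43.6 and ranked 264 in the pooled list. In replicate 2 it ranked 72 with a signal value of 21.3, and in replicate 1 it ranked 574 with 23.4. The point source falls in an exon, from 4507204 to 4510148, that 1 of the 18 transcripts uses, 767 bp from the start of that exon and outside its coding sequence. In the other 17 transcripts the same position is intronic. The start of that exon is an annotated unc-62 transcript start. Among outermost gene 5' ends the nearest was that of T28F12.1, 5062 bp away. Of the 16 sites, 7 lay in exons, 6 in introns, 2 upstream and 1 in the 5' window, and 6 lay within 200 bp of an annotated transcript start. Some of the 16 intervals overlap each other, so they are not all separate stretches. A close pair at 1764 and 1966 bp had signal values of 12.1 and 11.7 and shared 1 interval of replicate 2. Another pair, at 2830 and 3033 bp, shared its best interval in each replicate, so the replicates do not separate those sites. The site in the 5' window, 937 bp upstream, had a signal value of 14.1 and was found in replicate 1 alone.

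The sites counted for ceh-5 lay in its neighbours. This NK-like gene (WBGene00000430) is short, 0.866 kb at chrI:9727169-9728034 on the plus strand. It overlaps ocrl-1, a relative of the inositol phosphatase gene of Lowe syndrome, which runs on the minus strand from 9715321 to 9728006. Upstream of it, from 9722716 to 9726284 on the plus strand, lies eat-16, which encodes a regulator of G protein signalling. The stronger thresholded site, at chrI:9725267-9725606, lay 1732 bp upstream of ceh-5 and inside both eat-16 and ocrl-1. Its signal value of 50.7 was the highest at any homeobox gene (rank 168), with 35.4 in replicate 1 (rank 193) and 15.3 in replicate 2 (rank 216). The weaker one, at chrI:9722002-9722341, lay 4997 bp upstream of ceh-5 and 544 bp from the 5' end of eat-16. Its signal value was 33.8 (rank 519), with 34.8 in replicate 1 (rank 211) and 11.7 in replicate 2 (rank 434). Another pooled site in both replicates, at 15.6 and 3201 bp upstream, was nearer to the 5' end of eat-16 as well. Without the weaker site ceh-5 still counted through the stronger one.

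Of the 4 thresholded sites in homeobox regions, 2 had a homeobox gene as the nearest outermost 5' end, those at ceh-38 and at 1732 bp from ceh-5. Counted by transcript starts the unc-62 site also belongs to a homeobox gene, at 767 bp. The thresholded list ends at a signal value of 27.4 and has a median of 37.2, so 3 of the 4 sites were above its median. The strongest homeobox site outside it had a signal value of 22.5. The 832 strongest intervals of replicate 1 alone gave ceh-5, ceh-38, unc-62 and ceh-48 (4.6%, beside 6.59% of all genes). Those of replicate 2 gave ceh-5, ceh-38 and unc-62 (3.45%, beside 7.18%).

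**Figure D3:**
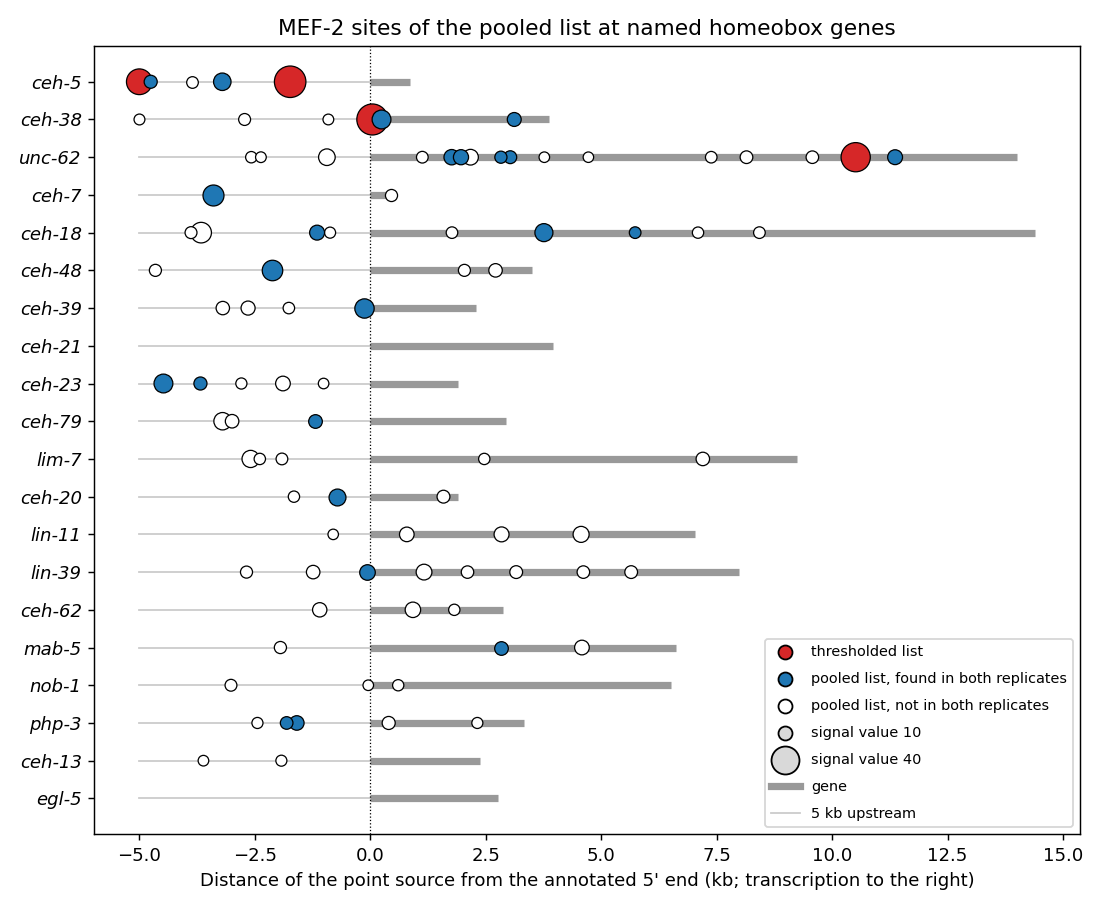
Pooled sites of 20 named homeobox genes by distance from the annotated 5' end (kb, transcription to the right), with circle area proportional to the pooled signal value, red for the thresholded list, blue for pooled sites found in both replicates and white for the others. A site shared by 2 genes is drawn once, at the gene with the nearer 5' end, so the site of ceh-21 appears at ceh-39; red circles appear at ceh-5, ceh-38 and unc-62 alone, and egl-5 has none.

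Below the thresholded list came sites of CUT, POU and TALE genes and sites nearer to a neighbour, the strongest at ceh-7 (22.5) and ceh-18 (21.7). For ceh-48, another ONECUT-type gene, a site 2120 bp upstream had a signal value of 21.5 (rank 1360). Its signal value was 22.0 in replicate 1 (rank 684) and 3.51 in replicate 2 (rank 5876). For ceh-39, an X-signal element of sex determination, a site 143 bp upstream ranked 1718 at a signal value of 19.1, with 14.6 in replicate 1 (rank 1855) and 2.8 in replicate 2 (rank 9333). The same site lay 3579 bp upstream of the adjacent CUT gene ceh-21, and was its only pooled site. The Pbx-type TALE gene ceh-20 had a site 722 bp upstream with a signal value of 14.6 (rank 3026), with 13.4 in replicate 1 (rank 2313) and 3.59 in replicate 2 (rank 5621). These 3 sites were found in both replicates and have a homeobox gene as the nearest 5' end, as do 3 others of like strength, at ceh-38 (246 bp downstream), ceh-23 and ceh-18. Their central 121 bases are shown as examples from the CUT and TALE classes, from the plus strand of ce11, with no base in capitals since none holds a MEF2 element.
ceh-48, chrIV:6809928-6810048: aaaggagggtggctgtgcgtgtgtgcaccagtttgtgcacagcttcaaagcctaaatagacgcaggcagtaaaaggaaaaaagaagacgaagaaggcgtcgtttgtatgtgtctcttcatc
ceh-39, chrX:1856255-1856375: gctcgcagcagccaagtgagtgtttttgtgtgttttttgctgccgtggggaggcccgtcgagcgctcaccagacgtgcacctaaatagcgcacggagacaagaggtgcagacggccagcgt
ceh-20, chrIII:6979102-6979222: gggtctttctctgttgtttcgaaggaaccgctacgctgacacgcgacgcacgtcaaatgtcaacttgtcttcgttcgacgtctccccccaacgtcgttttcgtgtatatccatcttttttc
Within 100 bp of the point source the A+T content was 52.2% at ceh-48, 46.3% at ceh-39 and 53.7% at ceh-20. At the other 3 sites it was 69.7% at ceh-38, 64.2% at ceh-23 and 61.7% at ceh-18, and the median over all homeobox sites was 64.2%.

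Several other strong pooled sites were seen in replicate 1 alone or lay nearer to another gene. The POU gene ceh-18, which acts in the gonadal sheath cells, had 9 pooled sites in 19.4 kb, the second highest number in the family. Its strongest, 3659 bp upstream, had a signal value of 21.7 in the pooled list and 19.6 in replicate 1 (rank 904), and no interval in replicate 2. Its intron site at 3761 bp downstream had 16.6 and was found in both. The site 3396 bp upstream of ceh-7, with a signal value of 22.5 (rank 1244), lay 70 bp from the 5' end of cup-16 and inside that gene. It ranked 922 in replicate 1 and 11842 in replicate 2. A site 3195 bp upstream of ceh-79 (signal value 15.5) lay 1118 bp from the 5' end of C26E1.1 and was found in replicate 1 alone. For ceh-23 a site 4475 bp upstream had a signal value of 18.1 and was found in both replicates, at rank 1454 in replicate 1 and rank 2042 in replicate 2. The LIM genes lim-7, of the Islet type, and lin-11, which acts in vulval cells and neurons, had their strongest sites at 15.1 and 13.1, both in replicate 1 alone.

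Among the 6 Hox genes no site reached the thresholded list. The mid-body gene lin-39 had the most, with 8 pooled sites or 0.616 per kb. Its strongest, in an intron 1166 bp downstream, had a signal value of 12.7 (rank 4246) and was found in replicate 1 alone. A site 79 bp upstream of its 5' end had a signal value of 12.4, with 11.0 in replicate 1 (rank 4040) and 3.86 in replicate 2 (rank 4693), and was the one lin-39 site found in both. For mab-5, which patterns the posterior body, 3 pooled sites were listed, the strongest at 11.0. Its intron site 2832 bp downstream had a signal value of 9.5 and was placed differently by the replicates, at rank 1123 in replicate 2 (7.56) and at rank 23037 in replicate 1 (5.51).

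The Abdominal-B-type genes nob-1 and php-3 are neighbours and share sites, with 6 pooled sites counted for nob-1 and 5 for php-3. Their strongest shared site (10.8) was 1588 bp upstream of php-3 and inside nob-1. It ranked 7983 in replicate 1 and 8480 in replicate 2. The labial-type gene ceh-13 had 2 pooled sites, the stronger at 6.2 (rank 23722), and no site in replicate 2. The posterior gene egl-5 had no pooled site. It had 2 sites in replicate 1, the stronger at 5.03, and 1 in replicate 2 at 2.75, all below the medians of those lists, 6.8 and 3.0. Of the 6 Hox genes, 5 had a pooled site, beside 80.7% of all genes, and 4 had one found in both replicates, beside 34.8% of all genes. Those 4 count nob-1 and php-3 through the same shared sites.

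By class of homeodomain, the number of sites per kb ran from the TALE genes down to the paired-like genes. Classes came from background knowledge for 60 of the 87 genes, and 27 were left unclassed. The 4 TALE genes held 0.607 sites per kb (0.404 to 0.878), above the 0.284 of all genes. That interval treats the overlapping sites of unc-62 as separate counts. Without unc-62 the other TALE genes, ceh-20, ceh-40 and ceh-60, held 0.443 (0.229 to 0.773), an interval that includes the value of all genes. The POU class held 0.4 per kb, the CUT class 0.386 and the Hox class 0.383. Without their richest members, ceh-18, ceh-38 and lin-39, these came to 0.332 (0.122 to 0.722), 0.301 (0.137 to 0.571) and 0.31 (0.165 to 0.531). The members left out, unc-62 included, were picked for their many sites. That by itself lowers a density, so nothing is concluded from the drop.

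At the low end, the 12 paired-like genes held 0.143 sites per kb (0.086 to 0.223), below the value of all genes. Of these genes 7 had a pooled site and 3 had one in both replicates, beside 80.7% and 34.8% of all genes. The 16 NK-like genes held 0.201 (0.129 to 0.299), and the 7 LIM genes 0.186 (0.102 to 0.312), both with intervals that include 0.284. All 7 LIM genes had a pooled site, beside 80.7% of all genes, and 0 of their 14 sites was found in both replicates, beside 23.8% of the sites of all genes. The 2 Hox-related genes pal-1 and vab-7 held 0.146 per kb, the 3 sine oculis genes (ceh-32, ceh-33 and ceh-34) 0.263, the zinc finger homeobox gene zag-1 0.373 and the unclassed genes 0.248. The classes hold few genes and were not tested against each other.

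**Figure D4:**
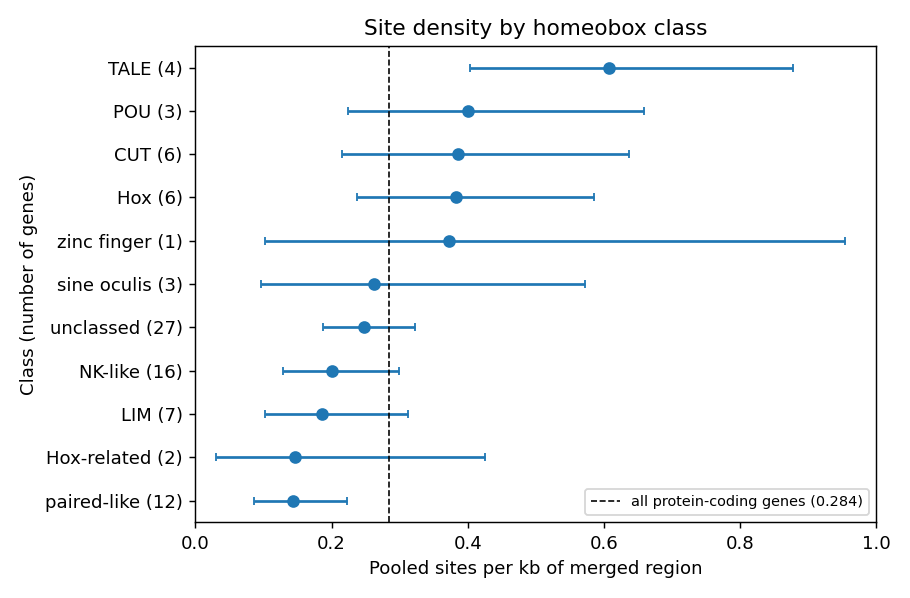
Pooled sites per kb of merged region for each homeodomain class, with the number of genes in parentheses; points are densities, bars 95% Poisson intervals and the dashed line the value of all protein-coding genes (0.284). TALE genes lie above the line at 0.607 and paired-like genes below it at 0.143, and the other intervals include it.

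The replicates differed in how many homeobox sites they listed, as they did for all genes. Replicate 1, with 30000 intervals, had a site at 76 homeobox genes (87.4%, 78.8 to 92.8%), beside 83.7% of all genes. Replicate 2, with 16385 intervals, had one at 59 (67.8%, 57.4 to 76.7%), beside 66.0%. Both replicates had a site, not necessarily the same one, at 55 homeobox genes (63.2%, beside 59.7% of all genes). Replicate 1 alone had one at 21 (24.1%, beside 24.0% of all genes) and replicate 2 alone at 4 (4.6%, beside 6.33%). Neither had one at 7 (8.05%, beside 10% of all genes).

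Agreement on single sites was lower. Of the 204 pooled sites, 161 (78.9%) overlapped an interval of replicate 1 and 58 (28.4%) one of replicate 2. Both were overlapped by 39 (19.1%, 14.3 to 25.1%) and neither by 24 (11.8%). For all gene regions 80.9% overlapped replicate 1, 32.2% replicate 2, 23.8% both and 10.8% neither. At least 1 pooled site found in both replicates was present at 25 homeobox genes (28.7%, 20.3 to 39.0%), beside 34.8% of all genes. Across those 39 sites, Spearman's rho between the signal values of the replicates was 0.378, given as a description, since neighbouring sites can share an interval. The median pooled signal value was 7.75 at homeobox sites and 7.98 at all sites.

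**Figure D5:**
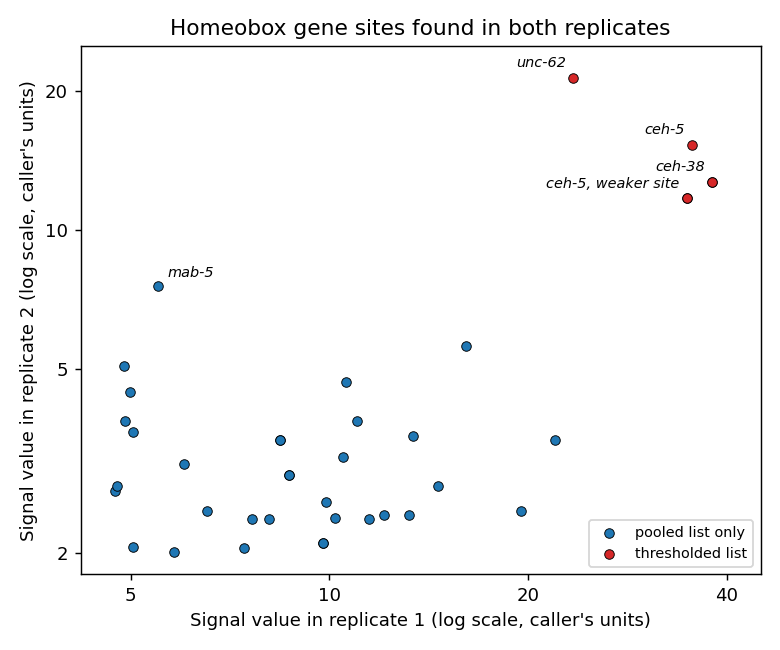
Signal value in replicate 1 (x axis, log scale) and replicate 2 (y axis, log scale) for the 39 homeobox sites found in both replicates, with thresholded sites in red and the others in blue; some points coincide because neighbouring sites share replicate intervals. The 4 thresholded sites lie at 23.4 or more in replicate 1 and at 11.7 or more in replicate 2, and the mab-5 intron site is high in replicate 2 (7.56) for its value in replicate 1 (5.51).

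Homeobox genes without any pooled site numbered 15, where 82.8% of the family had one, beside 80.7% of all genes. Their regions were shorter, with a median of 7.07 kb against 8.62 kb for those with a site. Of the 15, 8 had a site in replicate 1 and 7 had one in replicate 2. The 5 genes with no site in any list were ceh-28, ceh-31, ceh-45, ceh-63 and ceh-84. No share over all genes is given for this count or for the 8 and 7 above, so they do not set the family apart. Across the family, Spearman's rho between region length and number of pooled sites was 0.37 over 87 genes, given as a description, and 0.388 over all genes.

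Many of the counted sites lay near or inside a neighbouring gene. For 139 of the 204 sites (68.1%) the nearest 5' end was that of a homeobox gene, and for 65 (31.9%) it was that of another gene. Inside another protein-coding gene lay 38 sites (18.6%). Of the 95 upstream sites, 42 (44.2%) were nearer to the 5' end of a gene outside the family. These shares have no value for other genes beside them, so they do not set the family apart. With each site counted only for the gene with the nearest 5' end, and only inside its region, the shares of homeobox genes were higher than those of all genes in the relaxed lists. They were 67.8% (57.4 to 76.7%) beside 57.1% in the pooled list, 70.1% (59.8 to 78.7%) beside 59.9% in replicate 1 and 57.5% (47.0 to 67.3%) beside 42.2% in replicate 2. In the thresholded list the share was 2.3% (0.633 to 8.0%), from 2 genes, beside 3.25%. The interval excluded the value of all genes in the pooled and replicate 2 lists and included it in the other 2.

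The MEF2 element was about as frequent at homeobox sites as at others. It was searched on both strands within 100 bp of each point source and consists of C or T, then T and A, then any 4 of A or T, then T and A, then A or G. None of the 4 thresholded homeobox sites held it, and 40 of 806 nuclear thresholded sites did (4.96%). Of the 204 pooled sites, 15 in 12 genes held it (7.35%, 4.51 to 11.8%), beside 7.05% of all pooled sites in gene regions. In flanks of equal width, 500 bp to either side, the share was 6.62% for homeobox sites and 7.44% for all. Among homeobox sites found in both replicates, 2 of 39 held it (5.13%), beside 5.89%.

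The sites that did hold an element are illustrated by 4 windows, read from the plus strand of ce11 with elements in capitals. Those of ceh-58 and ttx-1, an Otx-type gene of the AFD thermosensory neuron, are the 2 found in both replicates. The window of ceh-62 holds the one element at a homeobox site that begins with CTA and ends with TAG (0.49% of homeobox sites, beside 0.84% of all), and that of lin-39 holds 3 elements, of which 2 overlap and so form 1 run of capitals. Neither ceh-58 nor ttx-1 was covered by the rule for named genes; they were picked with their values known.
ceh-62, chrII:10806562-10806762: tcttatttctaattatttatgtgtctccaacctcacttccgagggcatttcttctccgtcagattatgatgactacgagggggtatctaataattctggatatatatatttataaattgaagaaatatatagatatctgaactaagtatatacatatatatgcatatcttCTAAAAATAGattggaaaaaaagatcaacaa
ceh-58, chrII:10372381-10372581: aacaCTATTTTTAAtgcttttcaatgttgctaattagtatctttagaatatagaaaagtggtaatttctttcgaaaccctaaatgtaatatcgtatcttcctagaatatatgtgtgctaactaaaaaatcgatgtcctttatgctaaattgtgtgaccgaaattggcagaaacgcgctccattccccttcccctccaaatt
ttx-1, chrV:20064390-20064510: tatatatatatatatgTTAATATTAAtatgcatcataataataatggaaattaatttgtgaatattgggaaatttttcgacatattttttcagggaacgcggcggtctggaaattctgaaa
lin-39, chrIII:7533371-7533571: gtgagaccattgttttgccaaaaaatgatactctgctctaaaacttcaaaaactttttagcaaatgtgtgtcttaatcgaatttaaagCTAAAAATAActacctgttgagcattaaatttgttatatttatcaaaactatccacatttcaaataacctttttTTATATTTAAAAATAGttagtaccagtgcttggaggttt
The signal values at these sites were 12.2 at ceh-62, 11.7 at ceh-58, 8.75 at ttx-1 and 8.36 at lin-39, all below the thresholded list. The ceh-62 element lay in an intron 74 bp from the point source, and the site was found in replicate 1 alone. The ttx-1 site lay 274 bp upstream of the 5' end and ranked 27485 in replicate 1 and 3429 in replicate 2. The lin-39 window lies in an intron 3161 bp downstream of the 5' end. A matching stretch describes the sequence and does not show that MEF-2 contacts it.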

How the data were processed

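ChIP-seq of the eGFP fusion gave 4 deposited peak lists on ce11 used here: 1 relaxed list per replicate, 1 of the pooled replicates and 1 thresholded by the irreproducible discovery rate. A control entered the calling of every relaxed list, per the records deposited with the files. The signal values are those of the authors' caller, on a scale that is not stated, and were compared within a list only, or by rank between lists. Aligner, caller and rate limit: not given in the sources used here. Depth per library is unknown, and intervals cover counting error only. The ce10 lists were not used.

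Gene models are those of Ensembl release 115, and bases were read from the RefSeq copy of WBcel235, which is ce11. Sites were the point sources. A site was found in a replicate when its interval overlapped one of that replicate by at least 1 bp. Counts, Wilson and Poisson intervals were computed with Python 3.11.15, pandas 2.3.3 and scipy 1.17.1, and the counting code was checked on simulated data. No test was made. The class list matched 60 of its 61 genes.

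The naming rule uses no measured value, but the members, lists and classes were chosen with earlier results of these data known. The named genes are those with a thresholded site, the 15 with the highest pooled signal, the 6 Hox genes, the 3 with most pooled sites and the gene nearest to each thresholded site; others are said to be outside this rule, or are neighbours of a described site or members of a listed class. Alternatives covered the region, the window, the list, the element and each replicate.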

Additional observations from a re-analysis of the deposited data

How the results depend on the processing

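The list length, the need for both replicates and the gene body moved the counts most. With only the 5 kb upstream counted, 1 homeobox gene had a thresholded site (1.15%, beside 6.05% of all genes). With each site given to the nearest 5' end alone, 59 homeobox genes had a pooled site (67.8%, beside 57.1%). Counts of genes with a pooled site fell to 9, 15 and 37 in the 2000, 5000 and 10000 strongest intervals and to 25 with sites found in both replicates, alternatives chosen after seeing the data. Counts of genes with a pooled site at the 5' end fell to 2 (2.3%, beside 6.29% of all genes), 5 (5.75%, beside 12.3%) and 8 (9.2%, beside 19.2%) at those lengths. They fell to 11 in the 14091 strongest intervals (12.6%, beside 24.3%). In a window from 500 bp before to 100 bp past the 5' end the count was 17 (19.5%, beside 26.0%). Pooled sites per kb came to 0.124 in the 14091 strongest intervals, where all genes had 0.142. Sites found in both replicates came to 7.84% with point sources within 100 bp, beside 12.7% for all genes. With each replicate list alone, genes with a pooled site ranged from 59 to 76, genes with one at the 5' end from 15 to 26 and sites per kb from 0.147 to 0.273. Genes with a site among the 832 strongest numbered 3 in replicate 2 (3.45%, beside 7.18% of all genes) and 4 in replicate 1 (4.6%, beside 6.59%). In the 416 strongest thresholded peaks the count of 3 genes stood at 3.45%, beside 3.44% of all genes, so the lower share in the whole thresholded list was not seen there. In all, 14 of the alternative values differed from the main value by a factor above 1.5, and 42 did not. That tally concerns the homeobox value alone, so a shorter list can move it. It does not follow the contrast with all genes, which changed in some of the 42. Among these were the nearest 5' end alone (67.8% beside 57.1%) and the 416 strongest thresholded peaks (3.45% beside 3.44%). No paired analysis was possible because the 2 replicates form 1 group. With 3 genes in the thresholded list, 1 gene more or less shifts that share by a large part of itself.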
